A study of Rattus norvegicus with 18 samples.

Results

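The comparison set small RNAs of the somatosensory cortex at postnatal day 7 (P7) against postnatal day 3 (P3) in Sprague Dawley rats, and it used 4 of the 18 sequenced libraries of the series. Each stage was represented by 1 tissue sample that was sequenced in 2 technical runs. The labels name no treatment and no genotype beside the strain, and by the study's methods the tissue was dorsolateral cortex freed of meninges and of the structures beneath it. How many animals were combined in a sample is not given in the sources used here. The whole series followed the cortex over 8 stages from E10 to P28, and only P0 had 2 tissue samples. MiRNAs were compared within run 1 and within run 2, and a difference was called only when the level was at least 2-fold different in the same direction in both runs and reached at least 10 TPM (reads per 1000000 clean reads of the library) in both runs of at least 1 of the stages. The runs of a stage are repeated measurements of the same tissue sample, so P3 and P7 had 1 replicate each. No test between them was run, and no p-values are given. All counts below describe these tissue samples. Since the material is whole tissue, fewer cells of a type and less RNA per cell cannot be told apart.

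MiRNAs are small RNAs that are cut from hairpin precursors, are loaded into an Argonaute protein and repress mRNAs that pair with the seed, bases 2 to 8 from the 5′ end. The first postnatal week of the rat cortex is a time of late neuronal migration, growth of dendrites and axons, arrival of thalamic input and early synapse formation, while the formation of glia gains pace and that of neurons has mostly ended. MiRNAs of the miR-17-92 type are known from dividing progenitors, and miR-29 from maturing neurons and from the repression of collagens and DNA methyltransferases. The imprinted Dlk1-Dio3 region holds a miRNA cluster that is among the largest of mammalian genomes, with many members that are used in neurons.

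Of 697 known mature sequences, 466 were counted at P3 or P7 and 249 reached the level for comparison. At P7, 40 of them were called higher (16.1% of those compared) and 12 lower (4.82%). The miRNAs called higher included all 3 members of the miR-29 family, miR-27a and miR-27b, 18 mature miRNAs of the Dlk1-Dio3 cluster, the muscle-enriched miR-1-3p and miR-206-3p and the oligodendrocyte miRNAs miR-219a-5p and miR-219a-2-3p. The miRNAs called lower included 4 of the 5 compared arms of the Mir25, Mir93 and Mir106b hairpins, miR-20a-5p and the 5′ arm of Mir92a1. The other miRNAs called lower were miR-331-3p, miR-322-5p, miR-128-2-5p, miR-3099, miR-137-5p and miR-219a-1-3p. MiRNAs named below that stayed under 50 TPM were chosen after their values were seen.

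The sequences on which these differences rest are shown as RefSeq gives them for the rat (assembly GRCr8), with the seed in capitals. Of the 697 names, 692 took their sequence from RefSeq. The miR-29 family shares 1 seed and differs downstream of it.
miR-29a-3p: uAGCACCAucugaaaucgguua
miR-29b-3p: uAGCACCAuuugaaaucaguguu
miR-29c-3p: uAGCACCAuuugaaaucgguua
MiR-106b-5p, miR-93-5p and miR-20a-5p share a seed across the Mir25/93/106b and Mir17-92 clusters, and miR-25-3p, cut from the same transcript as the former pair, carries another.
miR-106b-5p: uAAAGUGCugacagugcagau
miR-93-5p: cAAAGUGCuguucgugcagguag
miR-20a-5p: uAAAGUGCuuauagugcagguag
miR-25-3p: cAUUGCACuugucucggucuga
MiR-27a-3p and miR-27b-3p are shown because they are alike over all but 1 base, so that most of their reads could not be assigned to either of them.
miR-27a-3p: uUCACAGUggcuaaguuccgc
miR-27b-3p: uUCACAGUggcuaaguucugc
Of the Dlk1-Dio3 miRNAs called higher, 8 whose levels are described are shown, and their seeds differ from each other.
miR-412-5p: uGGUCGACcagcuggaaagu
miR-376a-3p: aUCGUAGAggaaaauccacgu
miR-380-5p: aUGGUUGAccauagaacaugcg
miR-329-3p: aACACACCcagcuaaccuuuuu
miR-434-3p: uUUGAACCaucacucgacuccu
miR-382-3p: aAUCAUUCacggacaacacuu
miR-323-3p: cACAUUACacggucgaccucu
miR-411-5p: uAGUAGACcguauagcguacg
The remaining sequences belong to single miRNAs with large differences that are described one by one.
miR-219a-2-3p: aGAAUUGUggcuggacaucugu
miR-206-3p: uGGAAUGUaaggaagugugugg
miR-873-5p: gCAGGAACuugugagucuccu
miR-331-3p: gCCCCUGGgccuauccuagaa

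The 4 libraries held between 7097469 and 14607976 clean reads, so that 10 TPM stood for 71.0 reads in the smallest library and 146 in the largest. Known miRNAs took between 87.5% and 90.9% of the reads. The P7 run 1 library stood apart from its own run 2. Its tags of 18 to 21 nt made up 64.0% of reads, against 40.7% in P7 run 2 and 40.6% and 31.4% in the P3 runs. Across 195 miRNAs with a mean of at least 50 TPM, the median size of the log2 difference between the runs was 1.32 at P7 and 0.66 at P3, and the correlation of log2 levels between the runs was r = 0.830 at P7 and r = 0.953 at P3. The P7 and P3 libraries correlated with r = 0.787 in run 1 and r = 0.948 in run 2. Of the 2 tissue samples at P0, replicate 1 had 67.0% of its run 1 reads at 18 to 21 nt and replicate 2 had 41.0%, and run 1 of P7 correlated with run 1 of P0 replicate 1 at r = 0.873 and with that of replicate 2 at r = 0.733. These correlations are across miRNAs that share a library and are given as descriptions. The part of tag length in the differences between P3 and P7 was not tested, and results are therefore given for each run.

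**Figure D1:**
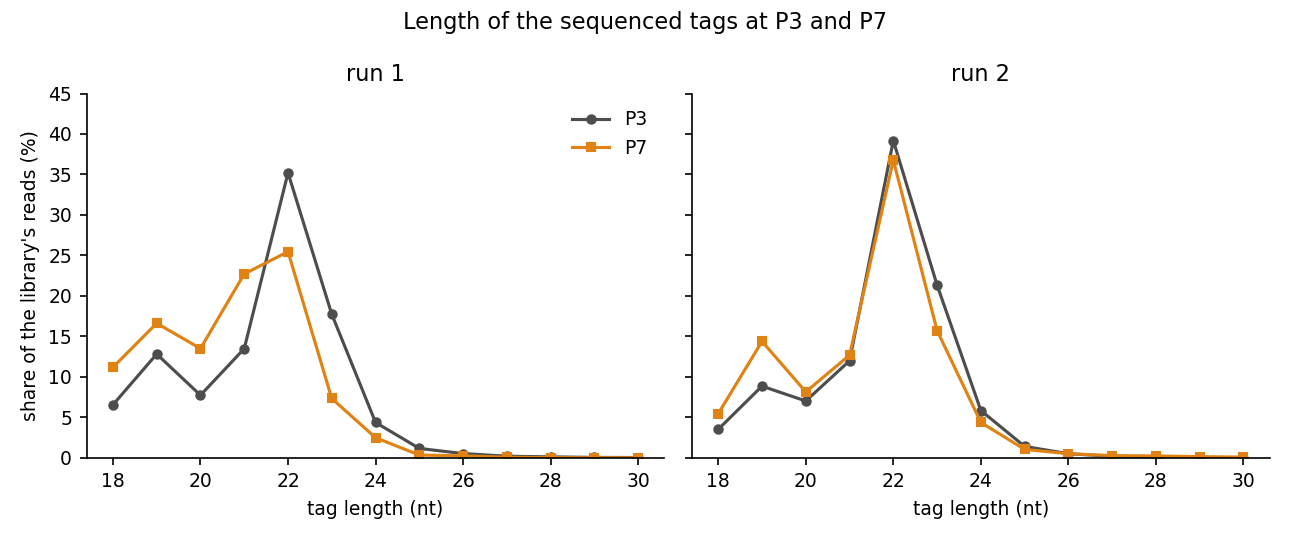
Share of each library's reads (%, y axis) by tag length in nt (x axis) at P3 and P7, in run 1 (left) and run 2 (right). All 4 libraries peak at 22 nt, and in run 1 the P7 library holds more short tags, with 22.7% of its reads at 21 nt against 13.5% at P3.

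The agreement of the runs and the spread between tissue samples set how far a single difference can be read. Of the 249 miRNAs, 94 were higher at P7 in both runs by any size, 59 were lower in both, and 96 moved in opposite directions. Among the last, 7 differed at least 2-fold in each run. Run 1 alone gave 83 differences of at least 2-fold upward and 62 downward, and run 2 gave 63 and 22. The median log2 ratio of all 249 was 0.38 in run 1 and 0.23 in run 2, and the log2 ratios of the runs correlated with r = 0.455 across them. When the libraries were scaled to that median instead of to the total reads, 26 of 250 miRNAs were called higher (10.4%) and 28 lower (11.2%), so the higher share of calls went from 76.9% to 48.1%. All 26 and 12 of the 28 were among the calls by total reads. Because the median was above 0 in both runs, this scaling lowered every ratio, so only higher calls could be lost. The 14 higher calls that ended were miR-98-5p, miR-132-5p, miR-138-5p, miR-142-5p, miR-146b-5p, miR-219a-5p, miR-31a-5p, miR-511-3p, miR-542-3p and 5 arms of the Dlk1-Dio3 cluster (miR-323-3p, miR-323-5p, miR-379-5p, miR-409a-5p and miR-411-5p). The same rule applied to the 2 tissue samples of P0, which are of 1 age, called 8 of 233 miRNAs higher in replicate 2 (3.43%) and 45 lower (19.3%), or 22.7% in all, beside 20.9% in all between P3 and P7. The number of calls between P3 and P7 is thus no larger than the number between tissue samples of 1 age.

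The directions were also shared with the P0 difference. In run 1 the log2 ratio of P7 to P3 correlated across the 249 miRNAs with that of P0 replicate 1 to replicate 2 at r = 0.798, and in run 2 at r = 0.235. Of the 40 miRNAs called higher, 38 were higher in P0 replicate 1 than in replicate 2 in run 1 and 36 in run 2, against 63.1% and 65.5% of all those compared. Of the 12 called lower, 8 were lower in P0 replicate 1 in run 1 and 6 in run 2. The difference between P7 and P3 exceeded that between the P0 samples in both runs for 24 of the 40 and for 8 of the 12. With median scaling as well, 15 and 8 remained, but that scaling could end higher calls only.

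**Figure D2:**
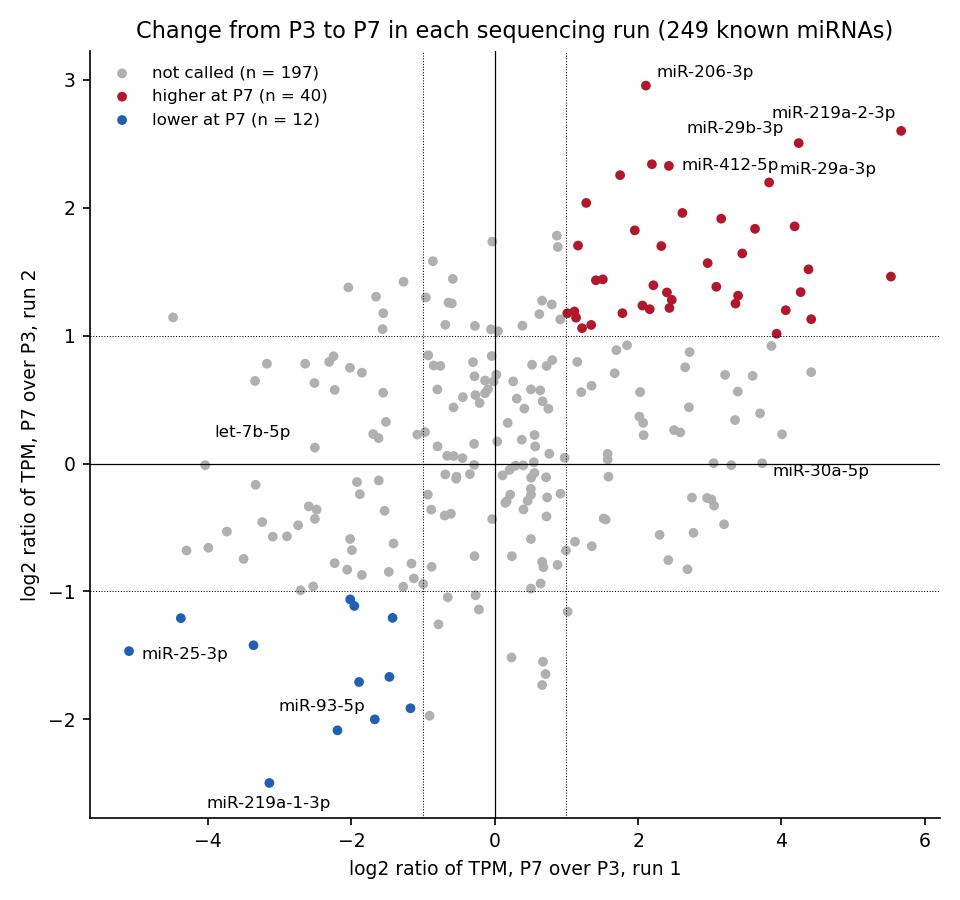
Log2 ratio of TPM at P7 over P3 in run 1 (x axis) and in run 2 (y axis) for 249 known miRNAs, 1 point each. Dotted lines mark 2-fold. The 40 miRNAs called higher (red) and the 12 called lower (blue) fill the outer corners, and 96 points lie in the quadrants where the runs disagree in direction.

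All members of the miR-29 family, which act on mRNAs of extracellular matrix proteins and DNA methyltransferases, were higher at P7. The level of miR-29a-3p, the most abundant of them, was 597 TPM in run 1 and 473 TPM in run 2 at P3, and 8482 TPM and 2166 TPM at P7. Both P7 libraries lay above both P3 libraries, and the ratio was 14.2-fold in run 1 (95% interval 13.9 to 14.6) and 4.58-fold in run 2 (4.46 to 4.71). The intervals are exact and account for the counting of reads alone, because PCR copies of 1 molecule are read more than once. The runs thus differ far more than counting allows. MiR-29b-3p was read at 9.97 and 5.10 TPM at P3 and at 189 and 29.0 TPM at P7. MiR-29c-3p was read at 103 and 89.9 TPM at P3 and at 274 and 243 TPM at P7, with ratios of 2.66-fold and 2.70-fold that hardly differed between the runs. For miR-29a-3p the P0 samples stood at 2217 and 608 TPM (replicate 1) and at 390 and 232 TPM (replicate 2). The difference between P3 and P7 was larger than that between the P0 samples for miR-29a-3p and miR-29b-3p but not for miR-29c-3p, and all 3 calls held with median scaling. By P14 miR-29a-3p stood at 16128 and 5431 TPM, and all 3 members were at least 2-fold above both P0 samples in both runs. Mir29a lies on chromosome 4 (mature sequence chr4:60617968-60617989, minus strand), with Mir29b1 close by, and Mir29c lies on chromosome 13 (chr13:109099412-109099433, plus strand), next to Mir29b2. Between 81.6% and 89.1% of the miR-29a-3p reads were identical to the mature sequence in all 4 libraries, so its rise was carried by the full-length form. The reads of miR-29b-3p were almost all shorter than its mature sequence.

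MiRNAs of the Mir25/93/106b cluster, which are known to promote cell cycle progression, were lower at P7. The hairpins lie within the span of Mcm7, a gene for a DNA replication licensing factor, on chromosome 12 (mature sequences within chr12:22156652-22157123, minus strand). MiR-93-5p was read at 503 and 429 TPM at P3 and at 158 and 107 TPM at P7, and was thus 3.19-fold and 4.0-fold lower. MiR-106b-5p fell from 235 and 201 TPM to 63.3 and 61.6 TPM, or 3.72-fold and 3.27-fold. For these miRNAs the runs gave like sizes. MiR-25-3p stood at 369 and 359 TPM at P3 and at 10.7 and 130 TPM at P7. Its 34.4-fold difference in run 1 (95% interval of the log2 ratio -5.45 to -4.78) contrasted with 2.76-fold in run 2. MiR-106b-3p, the other arm of the Mir106b hairpin, went from 31.8 and 29.9 TPM to 11.8 and 12.9 TPM. The fifth compared arm, miR-25-5p, was lower in both runs but by less than 2-fold in run 1. The 4 called arms all exceeded the P0 difference. They were called with median scaling too, which lowered every ratio and so could not end a lower call. MiR-93-5p stood at 1024 and 836 TPM and at 496 and 498 TPM in the P0 samples and at 125 and 102 TPM at P14.

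The related Mir17-92 cluster on chromosome 15 contributed miR-20a-5p (chr15:98588318-98588340), which was read at 54.3 and 37.6 TPM at P3 and at 19.6 and 11.8 TPM at P7, and miR-92a-1-5p, at 35.3 and 14.2 TPM against 1.69 and 6.16 TPM. Neither difference was larger than that between the P0 samples in both runs. Of the 8 compared members of the list of miR-17-92 and its paralogous clusters, which includes miR-92b, 4 were called lower and 0 higher, beside 4.82% of all miRNAs, and their median log2 ratios were -1.57 in run 1 and -1.49 in run 2, beside 0.38 and 0.23 for all miRNAs compared. Between the P0 samples 2 of 10 members were called lower in replicate 2, beside 19.3% of all miRNAs compared there, with median log2 ratios of replicate 2 to replicate 1 of -1.74 in run 1 and -0.53 in run 2. MiR-17-5p was not called, with 120 and 113 TPM at P3 and 141 and 39.4 TPM at P7, so its runs went in opposite directions. MiR-92a-3p, at 636 and 535 TPM against 157 and 355 TPM, was lower in both runs without reaching 2-fold in run 2. Summed over the 4 compared miRNAs with the seed AAAGUGC (miR-17-5p, miR-20a-5p, miR-93-5p and miR-106b-5p), the level went from 913 and 781 TPM to 382 and 220 TPM.

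Outside these clusters, miR-331-3p was called lower with close ratios in both runs. Its level was 181 and 196 TPM at P3 and 39.5 and 46.1 TPM at P7, a ratio of 4.58-fold and 4.24-fold downward, and the P0 samples ranged only from 54.8 to 93.4 TPM. At P3 it was thus above both P0 samples as well, and P7 and P14 (42.9 and 53.0 TPM) lay below them. Mir331 lies within the span of Vezt (mature sequence chr7:30414401-30414421, minus strand). MiR-128-2-5p, the less abundant arm of 1 of the hairpins of the neuronal miR-128, was read at 271 and 191 TPM at P3 and at 69.7 and 88.4 TPM at P7, while miR-128-3p was not lower. MiR-322-5p, which is known to restrain cell cycle genes, stood at 182 and 91.8 TPM against 80.6 and 24.4 TPM, and miR-3099 at 102 and 183 TPM against 25.2 and 87.5 TPM. MiR-331-3p, miR-128-2-5p and miR-3099 exceeded the P0 difference in both runs and miR-322-5p did not.

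The Dlk1-Dio3 cluster on chromosome 6, whose maternally expressed miRNAs include regulators of dendrite and synapse growth, held 18 of the 40 miRNAs called higher and none of those called lower. Of its 49 compared arms, 36 were higher in run 1, 44 in run 2 and 32 in both, with median log2 ratios of 1.01 and 1.17. The list used here includes miR-342, whose hairpin lies within Evl 968 kb before the next compared member, and its 2 arms were not called. Without it 18 of 47 arms were called (38.3%), against 22 of the other 202 miRNAs (10.9%), among which miR-300-3p of the same region, which the list leaves out, was not called. The 18 calls fell on 2 stretches. In the block from Mir379 to Mir410 (chr6:134543460-134579828) 16 of 35 compared arms of the list were called and 26 were higher in both runs, with 0 lower in both. In the block from Mir337 to Mir136 (chr6:134321170-134331404), part of which lies within the span of Rtl1, both arms of Mir434 were called out of 9. The differences of these arms are not independent, because many hairpins are cut from shared transcripts.

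Within the cluster the sizes varied widely between the runs. MiR-382-3p, the most abundant of the called members in run 2 of P7, was read at 2963 and 1369 TPM at P3 and at 8425 and 3713 TPM at P7, with close ratios of 2.84-fold and 2.71-fold. MiR-376a-3p went from 511 and 228 TPM to 1980 and 805 TPM, or 3.88-fold and 3.54-fold, and miR-412-5p from 12.4 and 25.4 TPM to 66.9 and 127 TPM, or 5.39-fold and 5.01-fold. In these 3 miRNAs the runs gave nearly the same ratio, but the direction of miR-376a-3p turned when only identical tags were counted (mean log2 ratio -0.73). MiR-411-5p, on the other hand, stood at 837 and 426 TPM at P3 and at 13974 and 977 TPM at P7, which made 16.7-fold in run 1 and 2.29-fold in run 2. MiR-379-5p (72.0 and 182 TPM against 1537 and 397 TPM) showed the same contrast. Among the 18, miR-323-3p, miR-323-5p, miR-380-5p and miR-409a-5p had the larger ratio in run 2. MiR-323-3p stood at 1208 and 901 TPM against 2926 and 3695 TPM. MiR-329-3p went from 61.3 and 26.4 TPM to 307 and 85.8 TPM, miR-380-5p from 19.5 and 10.4 TPM to 65.5 and 49.8 TPM, and miR-434-3p from 241 and 327 TPM to 1894 and 967 TPM.

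The P0 samples differed over the same cluster. There 16 of 44 compared arms were called lower in replicate 2 than in replicate 1, beside 19.3% of all miRNAs compared at P0, with median log2 ratios of replicate 2 to replicate 1 of -1.21 and -1.12, so the cluster differed between samples of 1 age by a size close to that between P3 and P7. Of the 18 calls, 8 exceeded the P0 difference in both runs, among them miR-376a-3p, miR-380-5p, miR-329-3p, miR-434-5p, miR-496-3p, miR-323-3p, miR-323-5p and miR-409a-5p, and 13 held with median scaling. At P14, 10 of the 18 were at least 2-fold above both P0 samples in both runs, beside 23 of all 40 miRNAs called higher. MiR-127-3p and miR-134-5p, well-known members of the cluster, were not called, and miR-543-3p and miR-409a-3p were higher in run 2 only.

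**Figure D3:**
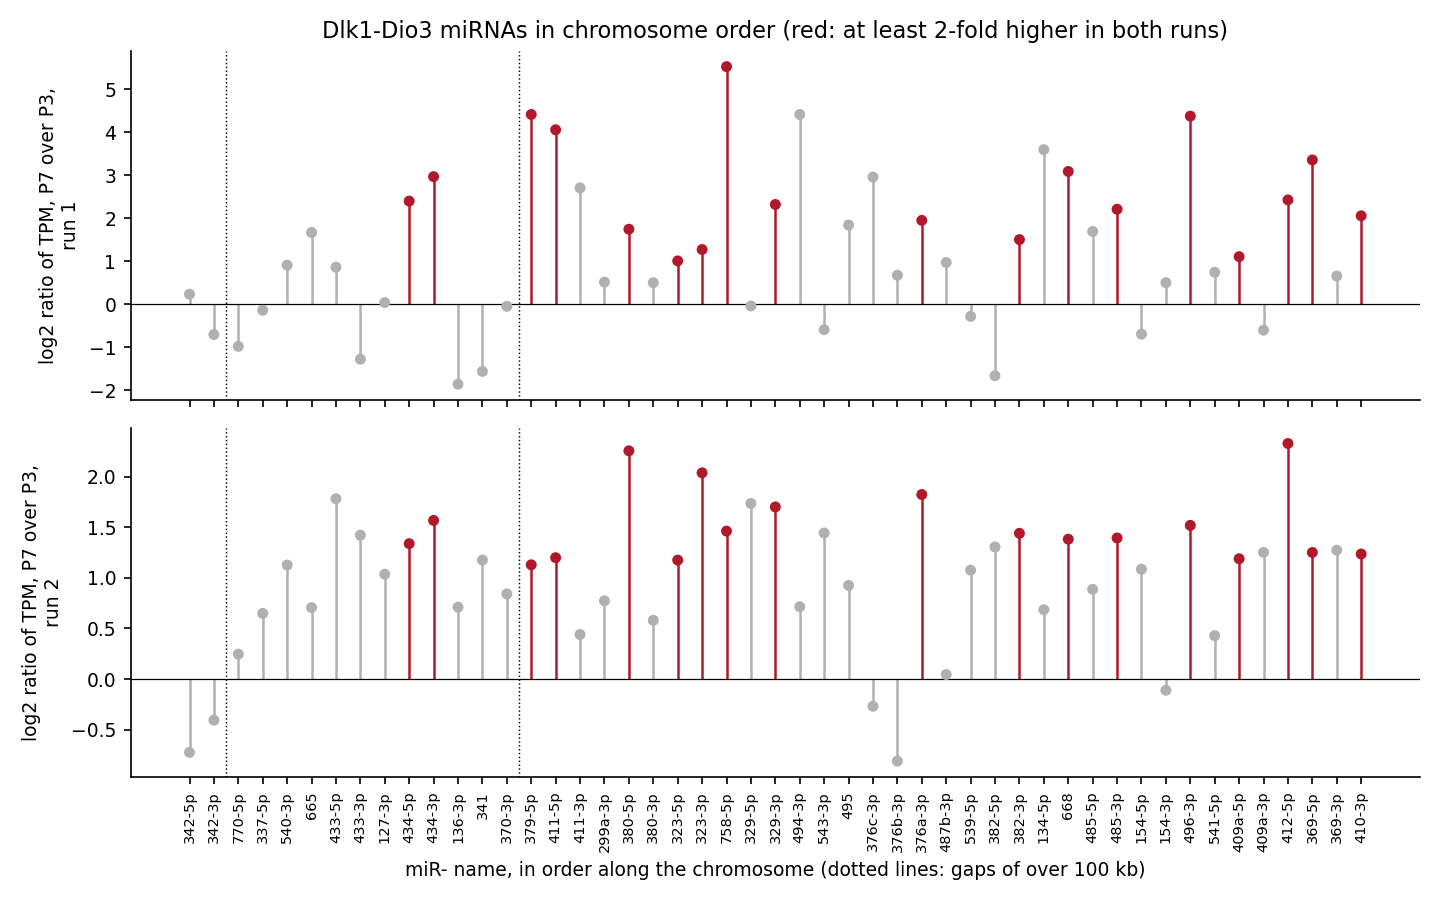
Log2 ratio of TPM at P7 over P3 for 49 arms of Dlk1-Dio3 miRNAs in chromosome order, in run 1 (top) and run 2 (bottom), with the 18 arms called higher in red. In run 2 all but 5 arms lie above 0, and the block right of the last dotted line holds 16 of the 18 calls.

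MiR-27a-3p and miR-27b-3p were higher at P7, and miR-23a-3p, miR-23b-3p and miR-24-3p of the same hairpin clusters moved the same way without reaching 2-fold in both runs. MiR-27a-3p was read at 53.2 and 134 TPM at P3 and at 660 and 477 TPM at P7, and miR-27b-3p at 61.0 and 158 TPM against 669 and 492 TPM. These values are largely the same reads, since only between 5.92% and 7.5% of the miR-27a-3p reads and between 8.35% and 20.2% of the miR-27b-3p reads fitted no other miRNA. The reads of both were mostly the 18 nt tag that ends 3 nt before the mature end. The levels of miR-23a-3p were 113 and 85.8 TPM against 187 and 145 TPM, a ratio of 1.65-fold and 1.70-fold. Those of miR-23b-3p had ratios of 1.33-fold and 1.35-fold, and those of miR-24-3p of 2.31-fold and 1.47-fold. Both miR-27 calls exceeded the P0 difference and held with median scaling. At P14 they stood at 553 to 654 TPM and were not 2-fold above both P0 samples.

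The largest ratio of all belonged to miR-219a-2-3p, which with miR-219a-5p is known to promote the maturation of oligodendrocytes by repressing factors that keep their precursors dividing. It was read at 58.3 and 66.4 TPM at P3 and at 2971 and 403 TPM at P7, or 51.0-fold higher in run 1 and 6.06-fold in run 2. The P3 runs were alike and the P7 runs differed widely, so the runs gave the same direction and very different sizes. The difference was larger than that between the P0 samples (139, 13.5, 5.75 and 6.02 TPM) and held with median scaling. At P14 the level was 6221 and 835 TPM. MiR-219a-5p was read at 26.3 and 23.2 TPM against 61.1 and 48.2 TPM, 2.33-fold and 2.08-fold higher, which did not exceed the P0 difference, and P14 stood at 24.5 and 19.9 TPM. MiR-338-3p, the third compared oligodendrocyte miRNA, was lower in run 1 and higher in run 2. By contrast, miR-219a-1-3p, from the other hairpin of the family, was among the miRNAs called lower, with 26.2 and 21.2 TPM at P3 and 2.96 and 3.77 TPM at P7. The summed level of the oligodendrocyte list ranged from 106 to 115 TPM at P3 and from 490 to 3048 TPM at P7.

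The muscle miRNAs miR-206-3p and miR-1-3p were called higher too. MiR-206-3p was read at 41.5 and 164 TPM at P3 and at 179 and 1272 TPM at P7, 4.31-fold and 7.75-fold higher, and it was the called miRNA with the largest ratio in run 2. The P0 samples lay between 5.49 and 17.7 TPM, and P14 stood at 505 and 2284 TPM. MiR-1-3p was read at 19.5 and 45.4 TPM against 174 and 171 TPM. Both exceeded the P0 difference and held with median scaling. The other muscle markers, miR-133a-3p and miR-133b-3p, did not reach 10 TPM in both runs of a stage, and the summed muscle list ranged from 61.0 to 210 TPM at P3 and from 355 to 1444 TPM at P7.

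The markers of other cells that a block of cortex can hold were read as well. The smooth muscle miRNA miR-143-3p was called higher (294 and 218 TPM against 1627 and 528 TPM), while miR-145-5p of the same cluster went down in run 1 and up in run 2. The myeloid miR-142-5p, at 9.70 and 5.26 TPM against 21.7 and 17.1 TPM, was called by total reads but not with median scaling, and miR-223-3p and miR-142-3p stayed below the level for comparison. The summed lists ranged from 6.0 to 10.5 TPM at P3 and from 17.4 to 22.5 TPM at P7 for myeloid cells, from 230 to 351 and from 555 to 1630 TPM for smooth muscle cells and pericytes, from 58.0 to 103 and from 72.3 to 238 TPM for endothelium, and from 821 to 1194 and from 1428 to 2635 TPM for meningeal and mesenchymal cells. Red blood cell miRNAs ranged from 29.2 to 61.9 TPM at P3 and from 26.2 to 43.4 TPM at P7, and choroid plexus miRNAs from 51.9 to 62.7 and from 48.6 to 93.7 TPM, with miR-211-5p listed at 0 in all 4 libraries. Neuron-enriched miRNAs, the defining markers of the tissue, were present in all libraries at sums between 145429 and 263981 TPM, and of 9 compared 1 was called, miR-138-5p, a regulator of dendritic spine size, beside 16.1% of all miRNAs. Its call ended with median scaling, and its direction turned when only identical tags were counted (mean log2 ratio -1.71). The part of the makeup of the dissected tissue in the called differences was not tested.

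**Figure D4:**
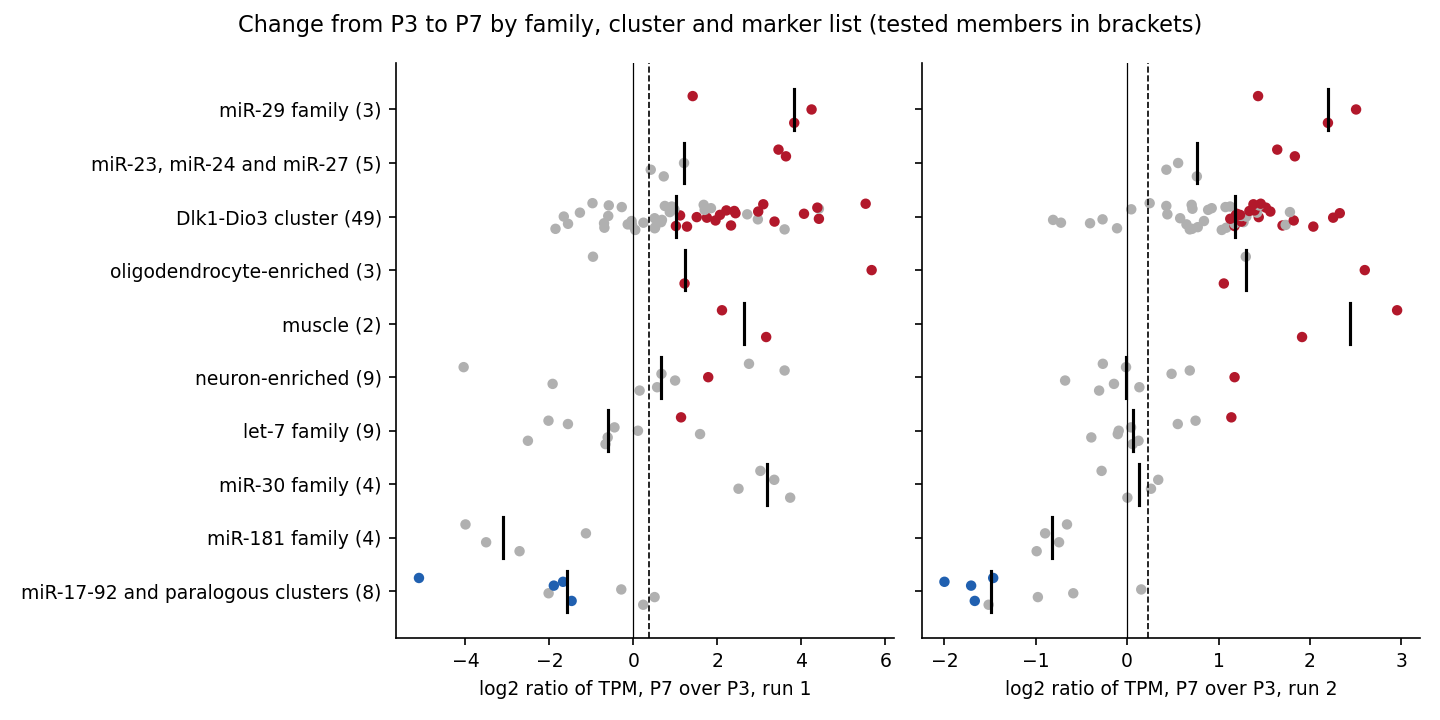
Log2 ratio of TPM at P7 over P3 in run 1 (left) and run 2 (right) for the compared members of 10 lists, 1 point each (red called higher, blue called lower, grey not called). Black bars are list medians, the dashed line is the median of all 249 miRNAs, and the number of members is in brackets. The miR-29 family lies right of 0 in both runs, the miR-30 family lies far right of 0 in run 1 and near 0 in run 2, and most of the miR-17-92 list lies left of 0.

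The abundant miRNAs were not among the calls. The 10 with the highest mean level (let-7c-5p, miR-128-3p, let-7f-5p, let-7a-5p, let-7b-5p, miR-124, let-7d-5p, miR-103-3p, miR-9a-5p and a sequence that the study's primers name miR-99b) held between 62.6% and 74.0% of the reads of a library. The last of these lies whole within the RefSeq hairpin of Mir99a and differs from the RefSeq sequence of miR-99b-5p, which was counted on its own. In run 2 the ratios of the 10 included 0.762-fold for let-7c-5p (314356 against 239490 TPM), 1.10-fold for miR-128-3p (89406 against 98066 TPM) and 1.09-fold for let-7b-5p (88296 against 96229 TPM). In run 1 they spread widely, with let-7b-5p at 51334 TPM at P3 and 9003 TPM at P7, and let-7d-5p at 17351 and 52128 TPM. Across the let-7 family, which is known to favour differentiation, 1 of 9 members was called, miR-98-5p, beside 16.1% of all miRNAs. It was read at 390 and 202 TPM at P3 and at 857 and 446 TPM at P7. Its call ended with median scaling, and its direction turned with identical tags alone (mean log2 ratio -0.28).

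Families that moved in only 1 run show how much the agreement of the runs decides. The 4 compared miR-30 miRNAs were all at least 5.67-fold higher in run 1, with a median log2 ratio of 3.19, and had a median of 0.13 in run 2. MiR-30a-5p was read at 1274 and 16937 TPM in run 1 and at 4403 and 4410 TPM in run 2. The 4 compared miR-181 miRNAs, on the other hand, were lower in both runs, with median log2 ratios of -3.11 and -0.82, and none was called by total reads because all stayed below 2-fold in run 2. MiR-181a-5p stood at 4830 and 12937 TPM at P3 and at 738 and 6511 TPM at P7. With median scaling 2 of the 4 were called lower, beside 11.2% of all miRNAs.

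Among the other miRNAs called higher, miR-873-5p was read at 50.9 and 21.4 TPM at P3 and at 313 and 83.2 TPM at P7, a ratio of 6.14-fold and 3.89-fold that was larger than the P0 difference. With identical tags alone this rise was absent (mean log2 ratio -0.042). Its hairpin lies within the span of Lingo2. MiR-146a-5p and miR-146b-5p, which share the seed GAGAACU and are known to dampen inflammatory signalling, went from 34.6 and 79.5 TPM in sum to 548 and 173 TPM. MiR-511-3p, whose hairpin lies within Mrc1, the gene of the macrophage mannose receptor, went from 3.08 and 2.06 TPM to 14.1 and 10.4 TPM. The activity-regulated Mir132 hairpin gave miR-132-5p at 10.6 and 9.14 TPM against 47.5 and 21.1 TPM, a difference that did not exceed that of the P0 samples in both runs. The calls of miR-146b-5p, miR-511-3p and miR-132-5p ended with median scaling. MiR-448-3p, from within the serotonin receptor gene Htr2c, went from 4.44 and 16.5 TPM to 85.7 and 41.8 TPM, but in P0 replicate 1 it stood at 418 and 166 TPM. The remaining calls were miR-31a-5p, miR-344b-1-3p and miR-542-3p, with ratios between 2.12-fold and 10.5-fold.

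The calls were also grouped by seed. Of 27 seeds that at least 2 compared miRNAs carry, 9 had a called member, 3 of these with a single called member, and 0 had members called in both directions. Of all compared miRNAs 20.9% were called, and a group holds a called member more often than a single miRNA is called. The count of seeds is therefore a description only. The seeds with every compared member called were AGCACCA (miR-29), UCACAGU (miR-27), GAGAACU (miR-146) and AUAUAAC (miR-344b-1-3p and miR-410-3p). Members of a seed group can share reads, as for miR-27, so they are not independent.

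The direction at P7 was compared with that at P14, which shares no library with the P3 to P7 comparison. Of all 249 miRNAs 47 were at least 2-fold higher at P14 than in both P0 samples in both runs (18.9%) and 14 were lower (5.62%). Of the 40 miRNAs called higher at P7, 23 were among the former, and of the 12 called lower, 8 were among the latter, while 0 of the 52 lay on the opposite side of both P0 samples at P14 in both runs. After the demands for a difference beyond that of the P0 samples and for median scaling, 12 of the 15 higher and 5 of the 8 lower miRNAs were also 2-fold different between P0 and P14. The first demand favours miRNAs whose P0 samples differ little, and the P14 rule uses those same samples. These shares are thus not independent of the filter. However, run 1 of P7 and run 1 of P14 correlated with r = 0.981, and run 1 of P3 with that of P0 replicate 2 at r = 0.975. In run 2 the same pairs correlated with r = 0.987 and r = 0.971. These libraries thus share more than a direction, and stage and library cannot be told apart with 1 tissue sample each.

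**Figure D5:**
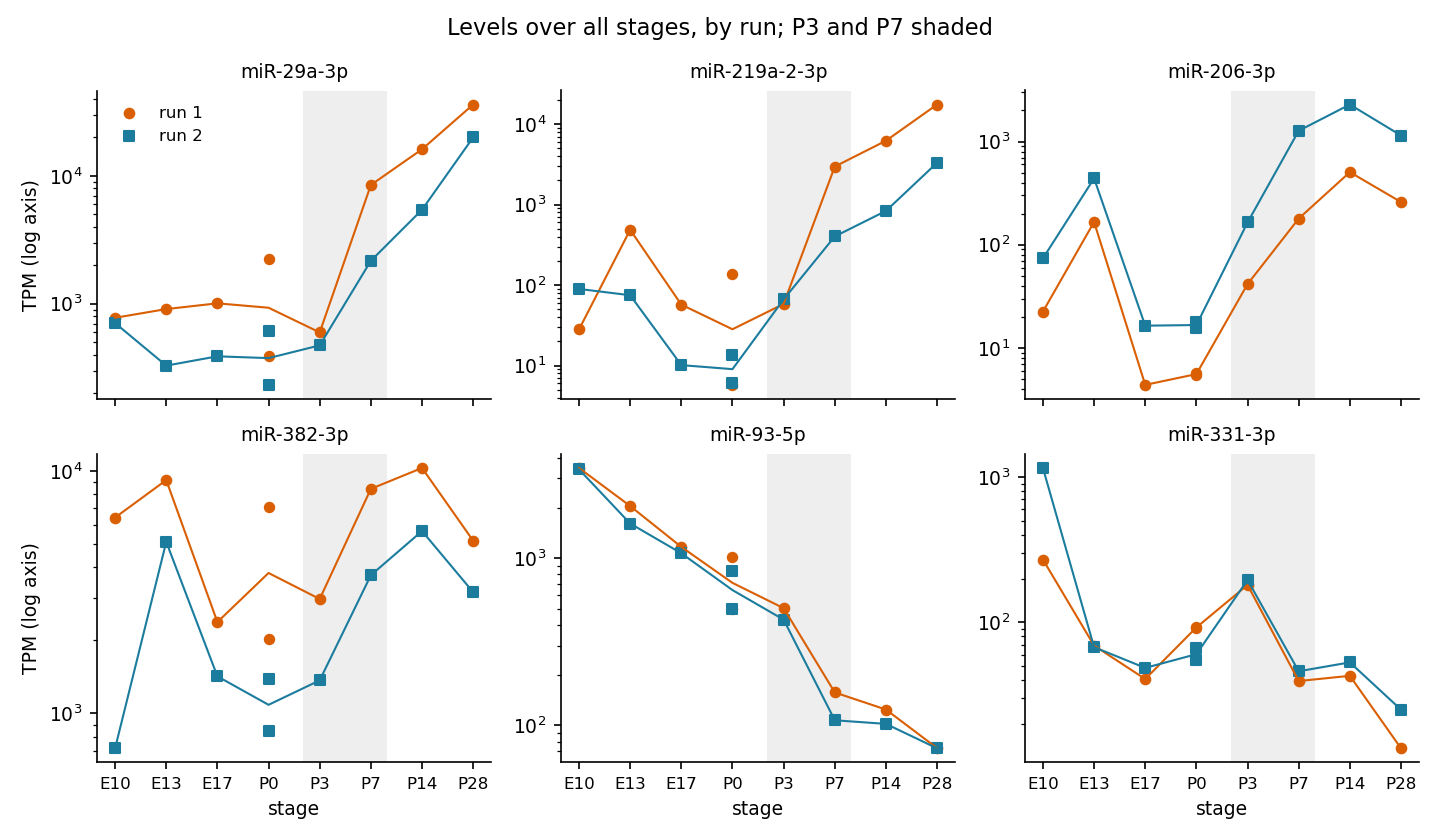
TPM (log axis) of 6 miRNAs at all 8 stages in run 1 (circles) and run 2 (squares), with P3 and P7 shaded. Each point is 1 library, P0 has 2 tissue samples, and lines join the stages through the geometric mean at P0. By the labels E10 and E13 are forebrain and the later stages somatosensory cortex. MiR-29a-3p, miR-219a-2-3p and miR-206-3p stand higher from P7 on than at P3, miR-93-5p falls over all stages and the course of miR-331-3p has a local peak at P3.

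Tag ends shifted between the stages along with the levels. Of 117 miRNAs examined, 105 had a shorter mean tag at P7 than at P3 in run 1 (median difference -0.47 nt) and 105 in run 2 (-0.19 nt). Between the P0 samples the mean tag was shorter in replicate 1 for 105 of 117 in run 1 and for 64 in run 2. The 3′ ends differed more than the 5′ ends, with a median of 77.9% and 56.8% of reads ending before the mature 3′ end at P7 and 55.1% and 46.4% at P3. For miR-138-5p the 18 nt tag that ends 5 nt early was 95.4% and 46.6% of reads at P7, and the identical tag was 0.137% and 9.71%, against 6.01% and 18.3% at P3. Counted by the identical tag alone, miR-138-5p was lower at P7 (mean log2 ratio of the runs -1.71), and miR-98-5p (-0.28), miR-376a-3p (-0.73), miR-323-5p (-0.24), miR-369-5p (-0.23) and miR-873-5p (-0.042) also lost their rise. The calls of these 6 miRNAs thus rest on tags whose ends differ from the mature sequence. The limit is wider, since only 10 of the 40 higher calls were also made with identical tags alone. For miR-29b-3p, identical tags were 2.73% and 1.49% of reads at P3 and 0% in both runs at P7. For miR-219a-2-3p they were 0.711% and 1.77% of reads at P7.

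Single tags were compared without any naming of miRNAs, from the same reads. Of 70151 unique tags seen in both runs of a stage, 2048 reached 10 TPM in both runs of a stage, and 298 of them were called higher (14.6%) and 258 lower (12.6%). Known miRNAs accounted for 118 of the former and 179 of the latter, so that tags of known miRNAs were more often called lower, while miRNAs as sums of tags were more often called higher.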

How the data were processed

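For each library the authors deposited the number of reads (raw counts) of every unique clean tag, of 18 to 30 nt in run 1 and of 18 to 39 nt in run 2, after removal of low quality reads, adaptors and contaminants and without normalization or mapping. Per the labels, small RNA of 16-35 nt was taken from total RNA, while the study's methods give a smaller lower limit, and the libraries were sequenced on a Solexa (Illumina) Genome Analyzer. Here TPM was the count divided by the total reads of the library, times 1000000, over tags seen in both runs of a stage. Tags were assigned to a miRNA when they had no mismatch where both overlap, started within 3 nt of the mature start and ran over the mature end by at most 3 nt, and those that fitted several miRNAs counted for each. Names came from RefSeq (692), from the study's primers (2) and, as the most abundant tag that fits, from its list of nucleotide changes (3). Of 149 names in the lists, 144 had a sequence. RefSeq sequences and coordinates are of GRCr8, to which the reads were not mapped here. The members and lists were chosen with earlier results of these data known.

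MiRNAs were named singly when they were among the 10 most abundant, among the 10 largest called rises or falls with at least 50 TPM in both runs of a stage, or on a list at that level. Unmatched tags (5 in each direction at that level) and candidates (from 10 TPM) followed the same rule. With 1 tissue sample each at P3 and P7 no model was fitted. The 95% intervals are exact (Clopper-Pearson) intervals of the 2 counts. The totals were 11033234 and 13129806 reads at P3 and 7097469 and 14607976 at P7. Matching and calling were tested on simulated data. Alternatives were the level minimum, the fold threshold, the tags counted, the scaling, the use of each run, the P0 difference and a pseudocount. The work was done in Python 3.11.15 (pandas 2.3.3, numpy 2.4.6 and scipy 1.17.1), with figures in matplotlib 3.10.9.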

Additional observations from a re-analysis of the deposited data

How the results depend on the processing

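Of 15 alternatives, those that added tags seen in 1 run, asked for the mature 5′ end or a single fitting miRNA, scaled by other read totals or added a pseudocount kept every count within 1.5 times of 40 higher and 12 lower miRNAs. A minimum of 1 TPM gave 36 lower miRNAs and 1588 higher and 1107 lower tags, and one of 50 TPM gave 7 lower miRNAs and 68 and 84 tags. A fold threshold of 1.5 gave 32 lower miRNAs and 496 lower tags. Identical tags alone compared 128 miRNAs and gave 10 higher and 13 lower, so the higher share of calls was 43.5%. Of these, 10 and 6 were among the calls by all matching tags. Median scaling gave 26 higher and 28 lower. Summed runs gave 83 and 33 miRNAs and 1055 and 763 tags. The demand to exceed the P0 difference gave 24 higher miRNAs and 194 higher tags. With 1 run alone the level had to be reached in that run only, so 279 miRNAs were compared in run 1 and 265 in run 2. The ranges were then 71 to 98 higher and 26 to 70 lower miRNAs and 950 to 1498 higher and 414 to 1571 lower tags. Fewer tags or fewer libraries enter these counts by construction, and the cause of the other shifts was not tested. The mean log2 ratio of the named miRNAs was followed in 1467 values, of which 1384 moved by less than the spread of the runs, 77 moved by more and 6 reversed, all 6 with identical tags alone (miR-873-5p -0.042, miR-376a-3p -0.73, miR-138-5p -1.71, miR-323-5p -0.24, miR-369-5p -0.23 and miR-98-5p -0.28). No paired analysis was possible because P3 and P7 have 1 tissue sample each, and the runs were compared separately. Among called miRNAs with 50 TPM, log2 ratio intervals were at most 0.34 to either side in run 1 and 0.19 in run 2. The median size of the log2 difference between the runs was 0.66 at P3 and 1.32 at P7. Called miRNAs below 50 TPM were left out of these intervals, and the part of depth was not tested.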

Other observations

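Tags that matched no known sequence gave 954 of the 2048 compared tags and between 7.11% and 9.90% of the reads of a library. Of the 954, 180 were called higher at P7 and 79 lower, beside 14.6% and 12.6% of all compared tags. At 50 TPM or more, 18 of them were called higher at P7 and 16 lower. Of the 18, 11 differed from a known miRNA at 1 base, 9 of these from miR-128-3p, and of the 16, 4 did so. The 18 and the 16 were ordered by the smaller of the changes in the 2 runs, so that a tag with a large change in 1 run can stand low in the order. The first tag among those higher carried C12A relative to miR-128-3p (tcacagtgaacaggtctcttt; positions are counted from 1 at the mature 5′ end and the base of the miRNA is given first). It was read at 20.03 and 5.26 TPM at P3 and at 130 and 62.7 TPM at P7. A tag with T1A in miR-128-3p (acacagtgaaccggtctcttt) went from 40.7 and 13.6 TPM to 197 and 91.5 TPM, and one with A3G in let-7c-5p (tggggtagtaggttgtatg) from 11.3 and 25.1 TPM to 111 and 102 TPM. An 18 nt tag from the Mir127 hairpin outside its listed arms (ctgaagctcagagggctc) went from 41.7 and 17.1 TPM to 266 and 75.2 TPM. The remaining tag of the first 5 in this order matched no sequence used here and stood at 88.9 and 31.1 TPM against 428 and 239 TPM. In the other direction, a tag with G8C in miR-128-3p (tcacagtcaaccggtctctttt) went from 82.5 and 55.8 TPM to 14.9 and 8.35 TPM, so changes at different bases of 1 miRNA went in opposite directions. A 24 nt tag that extends the primer sequence of miR-124 past the limit for a match went from 76.5 and 73.8 TPM to 6.34 and 26.8 TPM, and the other 3 of the first 5 tags in that direction matched no sequence used here. Reading errors and changed bases cannot be told apart in such tags.

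Arms of a hairpin were compared where both were read. Of 43 hairpins, 3 had both arms called in the same direction (Mir106b, Mir323 and Mir434), 13 had 1 arm called, and 0 had arms called in opposite directions. The ratio of the arms shifted at least 2-fold in both runs for 3 hairpins, toward the 3′ arm for Mir27b and Mir322 and toward the 5′ arm for Mir380. For Mir27b the 3′ arm was counted from reads of which at most 20.2% fitted no other miRNA, so its shift cannot be told apart from one of Mir27a. For Mir380 the log2 ratio of the 5′ to the 3′ arm went from -3.52 and -3.55 at P3 to -2.27 and -1.87 at P7. For Mir322 it went from -2.83 and -3.33 to -5.52 and -4.81.

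Of 101 candidate miRNAs that the study lists, 87 were counted at P3 or P7, and 1 reached 10 TPM in both runs of a stage. Candidate 11 was read at 1868 and 2556 TPM at P3 and at 998 and 1774 TPM at P7. It was lower in both runs, by less than 2-fold, and was not called. The highest level of any other candidate was 24.8 TPM in a single run.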
